A study of Mus musculus with 24 samples.

Results

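The genes described here are 42 mouse genes of DNA replication, listed by name for the machinery that licenses, fires and copies replication origins. They were taken by gene symbol, or by Entrez Gene identifier where the array carries an older name, among the 25697 probes of the array table. Of the 42 genes, 39 had a probe and 37 had one that was detected on at least 1 array. Those 37 had 53 of the 14246 probes kept for testing, and each gene is described by its brightest probe. Gins1, Gins2 and Rnaseh2b were not analysed here, and Pola1 and Pole2 were not detected on any array. Among the 37 genes, Gmnn, Topbp1, Dscc1 and Prim1 were not detected on all 3 arrays of any group, so their differences rest on values close to background.

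The study asked how loss of BAF180, the Pbrm1 product and a subunit of the PBAF chromatin remodelling complex, changes gene expression in T helper cells. Total RNA from 8 groups of 3 replicates, A to C, was hybridised to Illumina bead arrays, 1 array per replicate. The mice were WT or carried a conditional Pbrm1 knockout (KO) built around exon 11 and deleted by Cre under the CD4 promoter, which acts in T cells late in thymic development and leaves other cells with the gene. They were 4 to 6 weeks old, the labels name the strain as Balb/c, and the methods describe a mixed genetic background before the cross to CD4-Cre mice. Resting Naive cells were CD4+CD62L+ cells purified from spleen and lymph nodes to 95% purity, and stimulated Naive cells were cultured for 24 h on anti-CD3 (1 µg/ml) and anti-CD28 (2 µg/ml). Resting Th2 cells were made from Naive cells on the same antibodies with IL-4 (10 ng/ml) and anti-IFN-gamma (10 µg/ml), received IL-2 (100 U/ml) after 24 h and were expanded in IL-2 from day 3. Stimulated Th2 cells were resting Th2 cells given PMA (50 ng/ml) and ionomycin (500 ng/ml) for 1.5 h.

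Before a cell copies its DNA, the MCM helicase is loaded onto origins with the help of Cdc6 and Cdt1, which is called licensing, and kinases then fire the licensed origins. At the fork, primase and polymerase alpha start each strand, a sliding clamp loaded by replication factor C holds polymerases delta and epsilon, and single-stranded DNA is covered by replication protein A. Resting T cells are outside the division cycle and hold little of this machinery, and activated T cells divide rapidly. The genes are classic targets of E2F transcription factors.

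All values are log2 normalised intensities, and a difference of 1 is a 2-fold change. Quantile normalisation sets each value relative to the rest of the array, and in a bulk RNA sample fewer cells expressing a gene and less RNA per cell cannot be told apart. Arrays had between 8047 and 10689 probes detected, and replicates of a group correlated at r between 0.949 and 0.989 over the kept probes. The Pbrm1 probe was lower in KO than in WT arrays in every state without overlap, from a difference of -1.01 in resting Naive cells (limma adjusted p = 0.121) to -1.86 in resting Th2 cells (adjusted p = 0.00101). All 5 CD4 T cell markers were detected on all arrays. The early activation gene Cd69 was higher in WT resting Naive cells (mean 11.87) than in WT stimulated Naive cells (10.44), whereas Il2ra, the IL-2 receptor alpha chain, went from 5.34 to 8.38.

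The 250 bases before the annotated start of 5 of the genes are shown, taken from RefSeq for GRCm38.p6 on the strand of the gene. Capitals mark the letters of an E2F motif, searched as TTTGGCGC, TTTCGCGC, TTTCCCGC or TTTGCCGC on both strands. Mcm5 (chr8:75109259-75109508, plus strand), Mcm6 (chr1:128359706-128359955, minus strand) and Cdc6 (chr11:98907901-98908150, plus strand) are licensing genes that hold the motif, Mcm10 (chr2:5012792-5013041, minus strand) is the gene with the largest rise and Rpa1 (chr11:75348384-75348633, minus strand) is the gene that behaved least like the others.
Mcm5: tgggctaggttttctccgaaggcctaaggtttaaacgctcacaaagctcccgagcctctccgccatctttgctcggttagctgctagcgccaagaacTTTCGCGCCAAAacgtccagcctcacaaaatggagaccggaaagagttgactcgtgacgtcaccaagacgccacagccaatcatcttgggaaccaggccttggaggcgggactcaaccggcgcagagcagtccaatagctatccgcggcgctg
Mcm6: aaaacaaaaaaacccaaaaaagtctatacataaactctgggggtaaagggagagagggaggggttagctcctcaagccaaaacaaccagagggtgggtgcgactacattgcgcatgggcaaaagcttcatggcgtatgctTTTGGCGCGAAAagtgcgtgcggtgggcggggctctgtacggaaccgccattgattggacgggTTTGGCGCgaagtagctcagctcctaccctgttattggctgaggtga
Cdc6: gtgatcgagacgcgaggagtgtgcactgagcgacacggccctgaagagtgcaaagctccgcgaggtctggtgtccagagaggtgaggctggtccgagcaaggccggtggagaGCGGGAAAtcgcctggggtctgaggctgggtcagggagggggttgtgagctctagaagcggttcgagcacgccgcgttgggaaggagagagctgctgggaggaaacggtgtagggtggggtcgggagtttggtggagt
Mcm10: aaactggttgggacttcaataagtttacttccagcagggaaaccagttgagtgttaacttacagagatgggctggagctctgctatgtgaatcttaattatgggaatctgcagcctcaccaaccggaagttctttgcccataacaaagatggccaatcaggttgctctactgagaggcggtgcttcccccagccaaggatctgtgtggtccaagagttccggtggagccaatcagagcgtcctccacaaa
Rpa1: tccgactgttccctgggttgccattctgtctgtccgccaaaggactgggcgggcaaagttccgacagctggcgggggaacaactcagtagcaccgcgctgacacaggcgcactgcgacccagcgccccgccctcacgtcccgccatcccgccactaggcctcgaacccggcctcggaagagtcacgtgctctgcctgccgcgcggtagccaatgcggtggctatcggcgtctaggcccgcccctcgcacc
The capitals in Mcm5 are 2 motifs on opposite strands that share bases, and the first stretch in Mcm6 is of the same kind. In the window of 250 bases before and 50 bases from the start on, 31 of the 42 genes had an entry, and 12 of these, or 38.7%, held an E2F motif, against 2.6% of the 27025 genes with a window. The 12 were Cdc6, Cdt1, Lig1, Mcm3, Mcm5, Mcm6, Mcm7, Pola1, Pold1, Pole2, Rfc3 and Topbp1. The CCAAT motif was in 16 of 31 genes (51.6%, against 41.1% of all genes), and TTTGAA, the core of the cell cycle element found before many mitosis genes, was in 5 of 31 (16.1%, against 20.2%). Of the genes with an E2F motif that were tested, 9 of 10 were called higher in WT stimulated than resting Naive cells (median difference 2.06). Of those with a window but no E2F motif, 17 of 19 were (median 1.75). A match describes the letters of the window only, and a link between motifs and expression was not tested.

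**Figure D1:**
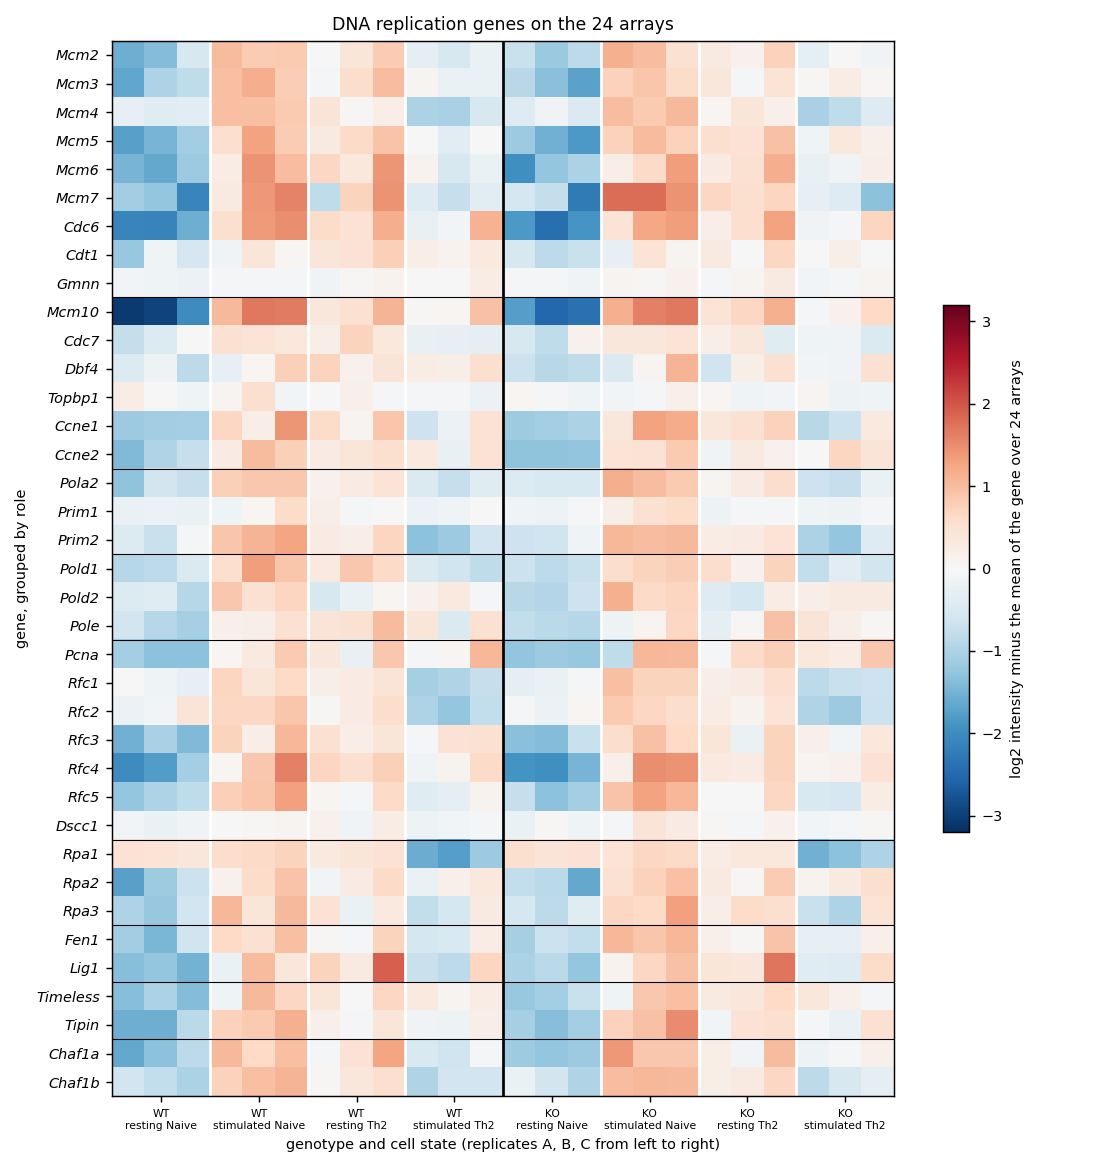
Each row is 1 of the 37 genes, grouped by role, and each column 1 of 24 arrays, ordered by genotype, state and replicate. The colour is the log2 intensity minus the mean of that gene over the 24 arrays. The stimulated Naive arrays are the reddest and the resting Naive arrays the bluest in both genotypes, and Rpa1, Rfc1, Rfc2, Mcm4 and Prim2 are bluest in stimulated Th2 cells.

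Nearly the whole list was higher in stimulated than in resting Naive cells. No group of Naive cells was cultured for 24 h without the antibodies, so culture and stimulation cannot be told apart. In WT cells 32 of 37 genes were higher after 24 h of anti-CD3 and anti-CD28 at an adjusted p below 0.05 and none was lower, where 23.6% of all probes were called higher. The median difference of the 37 genes was 1.74, a 3.33-fold rise, beside 0.01 over all probes. In KO cells 33 genes were higher and none lower against a background of 22.3%, with a median of 1.62. The 32 genes called in WT cells were all among the 33 called in KO cells, and Dbf4 was the gene called in KO cells alone.

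The licensing genes rose strongly, with 8 of 9 called. Cdc6, which loads the helicase, stood at 4.70, 4.66 and 5.25 on the 3 WT resting Naive arrays and at 7.33, 8.16 and 8.30 on the stimulated ones. The groups lay far apart, and the difference was 3.05 ± 0.36 (SE), or 8.31-fold (adjusted p = 9.02e-07). Mcm5, a helicase subunit, rose from 8.20, 8.46 and 8.84 to 10.49, 11.23 and 10.75, a difference of 2.32 ± 0.22. The remaining subunits Mcm2, Mcm3, Mcm4, Mcm6 and Mcm7 rose by 2.04, 2.13, 1.27, 2.31 and 2.58, so Mcm4 rose least and Mcm7 most. Mcm7 also had the widest error of these, 0.48, its resting arrays reading 5.42, 5.30 and 4.42. Cdt1, the partner of Cdc6 in loading the helicase, rose by 0.73 ± 0.23, its resting values of 7.24, 8.31 and 7.92 lying close to the stimulated values of 8.31, 8.85 and 8.51. Gmnn, which encodes the Cdt1 inhibitor geminin, was not well above background on any WT array.

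Mcm10, which helps to turn the loaded helicase into a moving fork, had the largest difference in the list. It read 4.77, 4.86 and 5.83 on the resting arrays, where 1 of 3 detected it, and 8.87, 9.51 and 9.49 on the stimulated arrays, 17.6-fold higher (difference 4.14 ± 0.31, adjusted p = 1.74e-09). In KO cells the same difference was 3.70 ± 0.31. Among the other firing genes, Ccne2, an S phase cyclin, rose by 1.74 and Cdc7, a kinase that fires origins, by 0.82. Ccne1, the related cyclin, was not well above background on any WT resting Naive array and was at least 2.32-fold higher after stimulation (adjusted p = 9.36e-05). Dbf4, the activating subunit of Cdc7, differed by 0.65 ± 0.33 in WT cells (adjusted p = 0.119) and by 1.02 ± 0.33 in KO cells (adjusted p = 0.0169), and the difference between the genotypes was 0.37 with no call in the interaction test. Topbp1, a scaffold for origin firing, stayed near background.

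Most fork genes rose as well. Among the subunits of replication factor C, the small subunits Rfc3, Rfc4 and Rfc5 rose by 1.99, 2.47 and 2.00, whereas Rfc1, the large subunit, and Rfc2 rose by 0.72 and 0.69. Rfc3 was not well above background on any WT resting Naive array, so its rise is at least 2.99-fold. Pcna, the sliding clamp itself, likewise was at least 2.16-fold higher (5.63, 5.87 and 6.41 after stimulation, adjusted p = 0.00203), and Pole, the catalytic subunit of polymerase epsilon, at least 1.95-fold higher.

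The polymerase alpha subunit Pola2 rose by 1.70 and the large primase subunit Prim2 by 1.47, and the small primase subunit Prim1, though called, was above background on no resting and only 1 stimulated array, so that no fold can be given for it. Pold1 and Pold2, the catalytic and second subunits of polymerase delta, rose by 1.66 and 1.25. Fen1, the nuclease that trims primers, and Lig1, which seals the fragments, rose by 1.77 and 1.75. Tipin and Timeless, which protect the fork, rose by 2.23 and 1.78, and the large subunits of chromatin assembly factor 1, Chaf1a and Chaf1b, by 2.14 and 1.72.

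The subunits of replication protein A differed in their values, and the difference between them was not tested. Rpa2 and Rpa3, the middle and small subunits, rose by 1.75 and 1.76. A dimmer Rpa2 probe, detected on 17 of 24 arrays, differed by 0.4 ± 0.28 and was not called (limma adjusted p = 0.271). Rpa1, the large subunit, read 11.31, 11.30 and 11.22 at rest and 11.41, 11.48 and 11.56 after stimulation. Its arrays did not overlap, but the difference of 0.20 ± 0.14 did not pass (adjusted p = 0.267; 95% interval -0.09 to 0.50). Rpa1 and Dbf4 were the genes detected on all arrays of a group that were not called higher in WT cells.

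**Figure D2:**
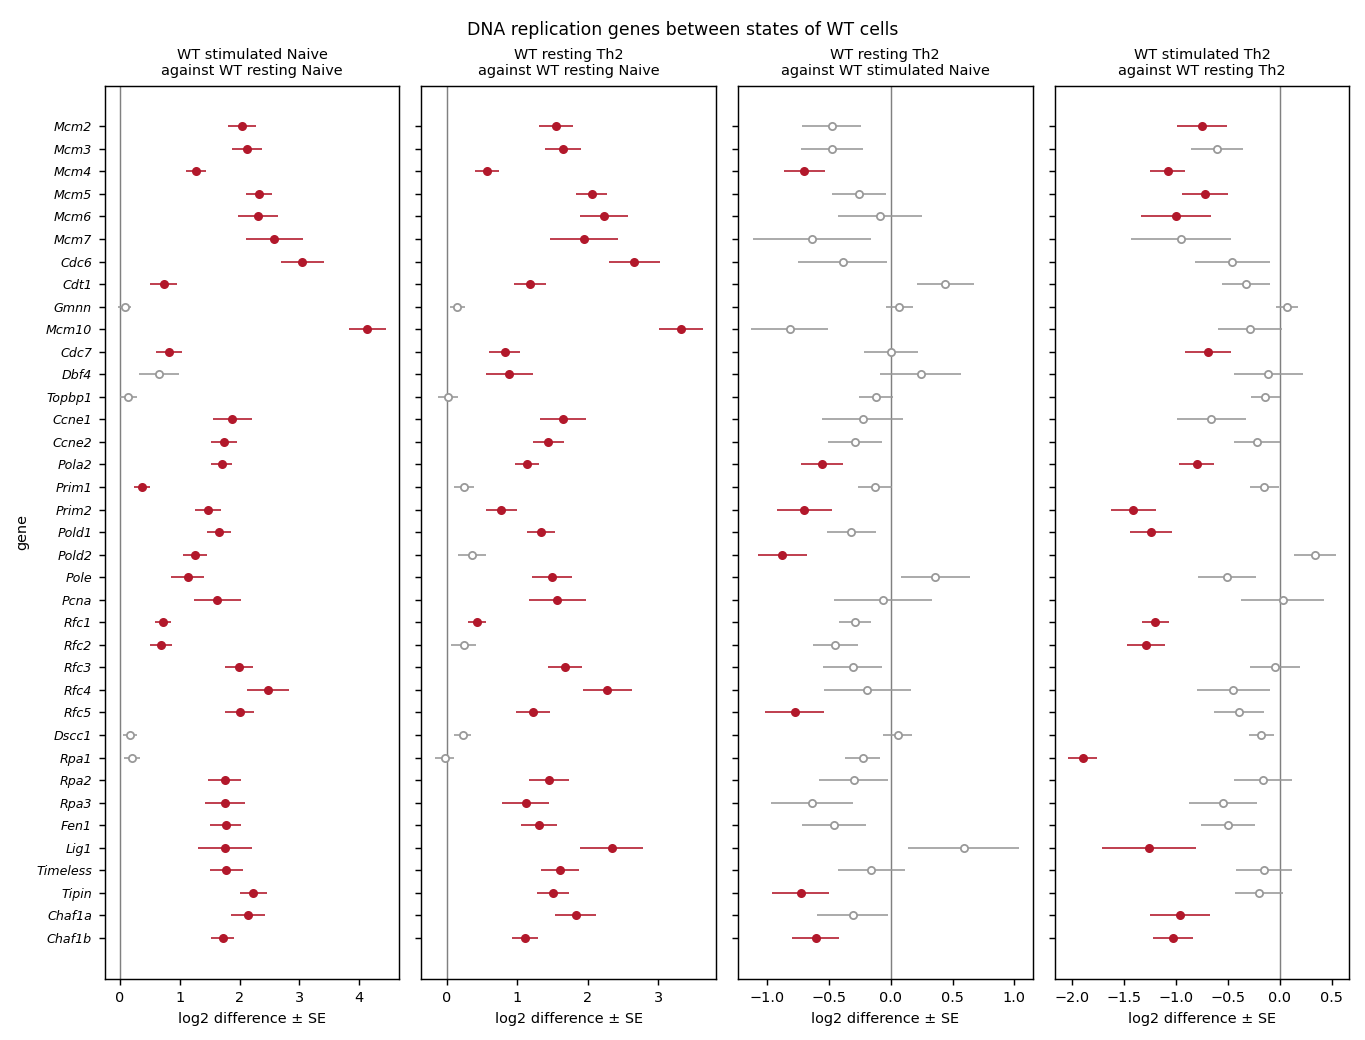
Each point is the log2 difference of 1 gene between the 2 WT groups named above the panel, with the SE as a bar, and filled red points have an adjusted p below 0.05. The first 2 panels lie to the right of 0 for nearly all genes, and the other two lean to the left, with Rpa1 at -1.90 in the last.

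The resting Naive arrays also carried RNA of other cells, which moved with this comparison. The summed intensity of the 3 myeloid markers kept of 4 was 789 to 3309 on WT and 1024 to 1403 on KO resting Naive arrays and 61 to 76 on all other arrays, and all 3 fell on stimulation of WT cells. Lyz2, a defining myeloid gene, was detected on no array outside the resting Naive groups. The 2 haemoglobin genes summed to between 328 and 12052 on the WT resting Naive arrays and to between 45 and 309 on the WT stimulated ones. Hba-a1 had means of 11.01 and 6.15 in these groups. Hbb-b1 stayed near background, with means of 4.47 and 4.25, and was detected on 1 WT resting Naive array. The B cell receptor genes Cd79a and Cd79b had means of 6.53 and 8.16 in WT resting Naive cells and of 4.50 and 6.53 in WT stimulated Naive cells, Ms4a1 was detected on no WT array, and the natural killer marker Klrb1c was detected on 1 WT resting Naive array. The CD8 T cell marker Cd8b1 was detected on all arrays and was not called in the WT stimulation of Naive cells. The part of these transcripts in the values of resting Naive cells was not tested. The differences between Th2 and stimulated Naive cells and between stimulated and resting Th2 cells are not taken against those arrays. The resting Naive arrays still entered the shared normalisation and the common estimate of spread behind the errors and adjusted p-values.

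Resting Th2 cells also stood above resting Naive cells. In WT cells 30 of 37 genes were higher and none lower, against 18.4% of all probes, with a median difference of 1.34 beside 0.03 over all probes. In KO cells 29 were higher and none lower, against 18.8%, with a median of 1.22. These comparisons share the resting Naive arrays with the ones above. Of the calls, 28 were made in both genotypes, which is 93.3% of the WT calls and 96.6% of the KO calls.

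The largest differences in WT cells were again those of Mcm10 (3.32 ± 0.31) and Cdc6 (2.66 ± 0.36), followed by Lig1 (2.34 ± 0.45), Rfc4 (2.28 ± 0.35) and Mcm6 (2.23 ± 0.34). Lig1 was not among the 5 largest at 24 h, and Mcm6, at 2.31, lay just below them. Lig1 read 5.94, 6.08 and 5.80 in WT resting Naive cells and 8.03, 7.59 and 9.23 in WT resting Th2 cells, the highest value being that of replicate C. Mcm4 differed by only 0.57, Rfc1 by 0.43 and Rfc2 by 0.24, the last without a call (adjusted p = 0.308). Pold2 differed by 0.36 (adjusted p = 0.176) and Rpa1 by -0.03, and the values of Gmnn, Topbp1, Dscc1 and Prim1 were at or near background.

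Set against Naive cells stimulated for 24 h, resting Th2 cells had somewhat lower values. In WT cells 7 of 37 genes were lower and none higher, against 11.5% of all probes called lower, and the median difference was -0.30 beside -0.01 over all probes. The share of 7 in 37 is not far above that background. In KO cells 9 were lower and none higher against 10.3%, with a median of -0.41, and all 7 genes called in WT cells were among them. Rfc1 and Prim1, the latter close to background, were called in KO cells alone. Of the 37 genes, 31 were below 0 in WT cells and 32 in KO cells.

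The genes called in WT cells were Pold2, Rfc5, Tipin, Mcm4, Prim2, Chaf1b and Pola2. Pold2 had the largest difference: it read 9.13, 8.75 and 8.95 in stimulated Naive cells and 7.77, 8.07 and 8.34 in resting Th2 cells, without overlap (-0.88 ± 0.20, adjusted p = 0.00274). Mcm4 read 12.10, 12.10 and 11.97 against 11.54, 11.17 and 11.35, again without overlap (-0.70 ± 0.17, adjusted p = 0.00354). Rfc5, Tipin and Prim2 differed by -0.78, -0.73 and -0.70, with adjusted p between 0.0222 and 0.0288. These small differences were sensitive to single arrays: without WT resting Th2 replicate A or B, or without WT stimulated Naive replicate C, 2 genes were called, and without WT stimulated Naive replicate B, 3. In KO cells 3 were called without resting Th2 replicate A and 5 without stimulated Naive replicate C.

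Profiles over the 4 states were similar in both genotypes. Among the 33 genes detected on all arrays of some group, 29 had their highest WT mean in stimulated Naive cells, and Cdt1, Dbf4, Pole and Lig1 had it in resting Th2 cells. The lowest WT mean was in resting Naive cells for 28, and in stimulated Th2 cells for Mcm4, Prim2, Rfc1, Rfc2 and Rpa1. In KO cells 29 genes peaked in stimulated Naive cells. The higher Th2 mean of Lig1 (0.59), Cdt1 (0.44), Pole (0.36) and Dbf4 (0.24) against WT stimulated Naive cells did not pass the test, and only the arrays of Cdt1 did not overlap.

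**Figure D3:**
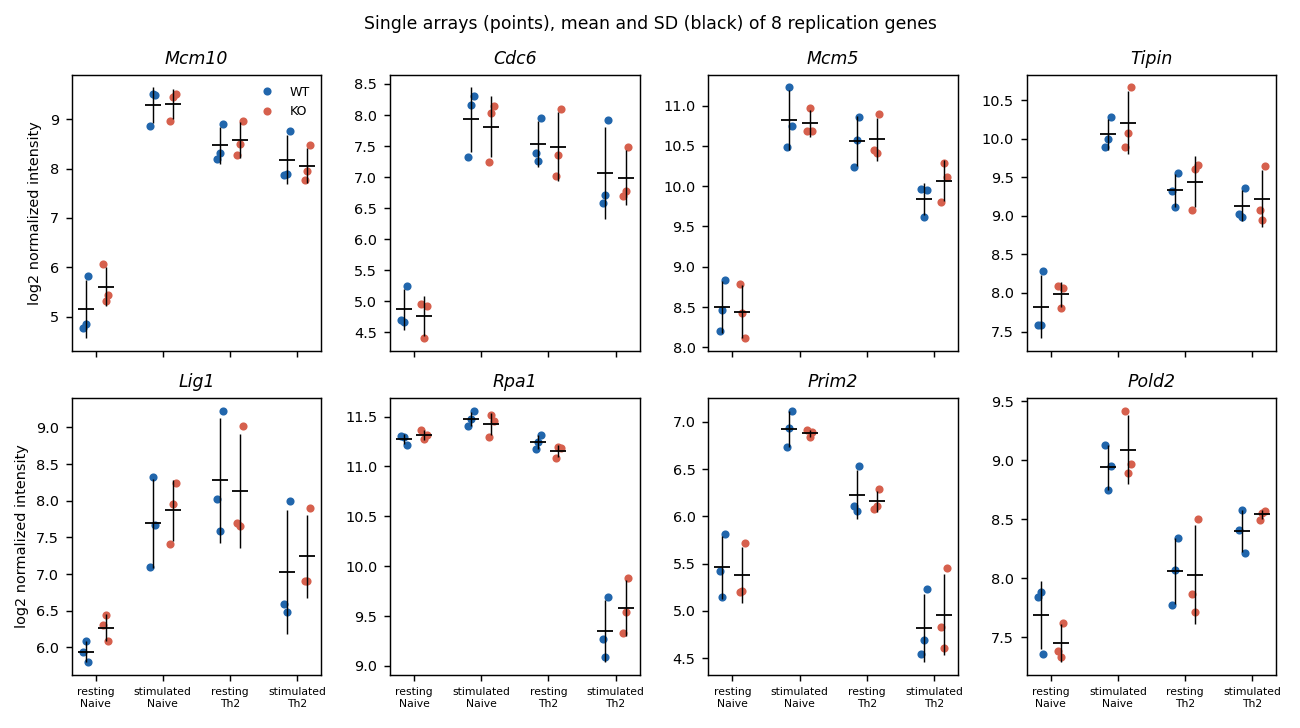
Each panel is 1 gene, the horizontal axis gives the 4 states and the vertical axis the log2 normalised intensity, on a scale of its own. Points are single arrays (WT blue, KO red), and the black bar gives the mean and SD of 3 arrays. Mcm10, Cdc6, Mcm5 and Tipin rise from resting to stimulated Naive cells, and Rpa1 stays near 11.3 until stimulated Th2 cells, where it reads 9.27, 9.09 and 9.69 in WT.

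A pulse of PMA and ionomycin, which mimic T cell receptor signals, was followed by lower values of part of the list within 1.5 h. In WT cells 14 of 37 genes were lower and none higher, against 14.3% of all probes called lower, with a median difference of -0.51 beside 0.00 over all probes. In KO cells 9 were lower and none higher, against 13.8%, with a median of -0.48. Of these, 8 were called in both genotypes, or 57.1% of the WT calls and 88.9% of the KO calls. Of the 14 genes lower in WT cells, 13 were among the 32 that were higher after 24 h in Naive cells, and as those are 32 of the 37 genes, this is near the share of the whole list. Rpa1 is the remaining gene.

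Rpa1 fell most. It read 11.18, 11.25 and 11.32 in WT resting Th2 cells and 9.27, 9.09 and 9.69 after stimulation, 3.73-fold lower (-1.90 ± 0.14, adjusted p = 3.18e-09). In KO cells it read 11.09, 11.20 and 11.19 before and 9.33, 9.54 and 9.88 after (-1.57 ± 0.14, adjusted p = 6.26e-08). The fall thus stood in both genotypes, and no array of one state reached those of the other. Rpa2 and Rpa3 differed by -0.16 and -0.55 in WT cells, and neither passed.

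Genes of priming and clamp loading were also lower. Prim2 went from 6.11, 6.06 and 6.53 to 4.54, 4.69 and 5.23, the latter detected on 2 of 3 arrays (-1.41 ± 0.22, adjusted p = 4.76e-05). Rfc2 fell by 1.29 and Rfc1 by 1.20, both with arrays apart, whereas Rfc3, Rfc4 and Rfc5 differed by -0.05, -0.45 and -0.39 without a call. The difference between subunits was not tested. Pola2 fell by 0.80.

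Pold1 fell from 8.81, 9.36 and 9.11 to 8.04, 7.85 and 7.67 (-1.24 ± 0.20, adjusted p = 5.54e-05). Pold2, its partner in polymerase delta, went the other way, from 7.77, 8.07 and 8.34 to 8.41, 8.58 and 8.21, a difference of 0.34 that did not pass (adjusted p = 0.245; 0.51 in KO cells, adjusted p = 0.0697). Only Pold2, Pcna (0.03) and Gmnn (0.07) were above 0 among the 37 genes in WT cells.

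Among the licensing genes, Mcm4 fell by 1.08, Mcm6 by 1.00, Mcm2 by 0.75 and Mcm5 by 0.72. Cdc7 fell by 0.69, Chaf1a by 0.96 and Chaf1b by 1.03. Mcm7 differed by -0.95 with an error of 0.48 and did not pass (adjusted p = 0.165), and Cdc6 and Mcm10, the genes with the largest rise at 24 h, differed by -0.46 and -0.29 without a call. The call on Lig1 rested on overlapping arrays, 8.03, 7.59 and 9.23 before and 6.59, 6.48 and 8.0 after (-1.26 ± 0.45, adjusted p = 0.0423), and the high value of each group was replicate C. The 6 genes called in WT cells alone were Cdc7, Chaf1a, Lig1, Mcm2, Mcm5 and Mcm6, and Ccne1 was called in KO cells alone, but no gene passed the test of the difference between genotypes. Without WT stimulated Th2 replicate B, 8 genes were called in WT cells, and without WT resting Th2 replicate C, 9. Of the 14 WT calls, 7 stood under every alternative run, and Mcm2, Mcm5, Mcm6, Cdc7, Chaf1a and Lig1 were not among these.

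Genes outside the list set these values in context. Of 36 other replication genes 29 were kept, and 17 were higher and 1 lower after 24 h in WT cells, with a median of 0.83. Over all probes 23.6% were called higher in that comparison and 2851 of 14246 lower. Cdc45, a part of the active helicase, rose by 3.29 and Clspn, a fork checkpoint mediator, by 2.64, and Pold4, the small polymerase delta subunit, fell by 0.81. Between resting Th2 and resting Naive cells 15 were higher and none lower, against 18.4% of all probes called higher, with a median of 0.58. After PMA and ionomycin 10 were lower and 2 higher, the latter being Mtbp (0.55), an origin firing factor, and Pole3 (0.72), a small polymerase epsilon subunit. Over all probes 14.3% were called lower and 1852 of 14246 higher, so 2 higher genes of 29 are below that background. Origin recognition genes varied among themselves at 24 h, Orc6 rising by 1.79 and Orc1 by 1.03, with Orc2 at 0.06 and Orc4 at 0.11.

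Mitosis genes, of which 21 of 30 were kept, had medians unlike those of the replication genes in the Th2 states. The difference between the lists was not tested. At 24 h 18 of 21 were higher in WT cells, against 23.6% of all probes, with a median of 1.61, close to the 1.74 of the replication genes. In WT resting Th2 cells against stimulated Naive cells 10 mitosis genes were higher and none lower, with a median of 0.81. Over all probes 1539 of 14246 were called higher. In the same comparison 7 replication genes were lower, none of them called under every alternative, and their list's median was -0.30. After PMA and ionomycin 17 of 21 mitosis genes were lower, where 14.3% of all probes were, with a median of -1.32 against -0.51 for the replication genes. Between resting Th2 and stimulated Naive cells of KO mice 4 mitosis genes were higher and none lower, with a median of 0.47. Of all 14246 probes, 1448 were called higher there.

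**Figure D4:**
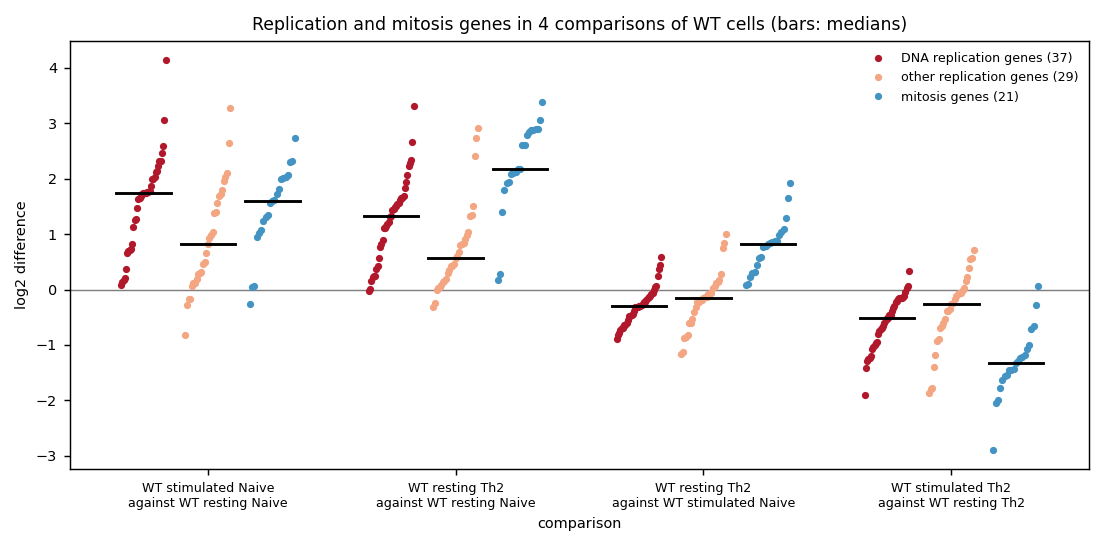
Each point is the log2 difference of 1 gene in the WT comparison named below it, sorted within the list, and black bars are medians. The replication genes (red) and mitosis genes (blue) lie at like heights after 24 h, with medians of 1.74 and 1.61, and on opposite sides of 0 in resting Th2 against stimulated Naive cells, with medians of -0.30 and 0.81.

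Loss of BAF180 was not followed by a detectable change of any of the 37 genes. By the thresholds of the study's methods (a Z-ratio beyond 1.5, a false discovery rate below 0.30, p below 0.05 and a signal above 0), applied here to the limma differences and p-values instead of Z-scores, no gene was called in resting Naive, stimulated Naive, resting Th2 or stimulated Th2 cells. Over all probes these criteria called 0.681%, 0.112%, 0.0842% and 0.0913%, so that for 37 genes a count of 0 is near the background. The median differences, KO minus WT, were 0.02, 0.04, -0.03 and 0.07. At an unadjusted p below 0.05 there was 1 gene in resting Naive cells and none in the other states. At an adjusted p below 0.05, in place of the 4 criteria, the count was also 0 in each state. The study, working with Z-scores, reported far more genes changed by loss of BAF180 than were called here over all probes. The calls made here therefore cannot stand in for those of the study. The study also found that BAF180-deficient CD4 T cells proliferated slightly less when stimulated, with somewhat higher RNA of cell cycle inhibitors. A link between that and the replication genes was not tested.

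The intervals show what sizes of change these arrays leave possible. The 95% interval of the difference lay within 2-fold in both directions for 32 of 37 genes in resting Naive, 35 in stimulated Naive, 34 in resting Th2 and 35 in stimulated Th2 cells. Mcm7 had the largest difference, 0.59 in stimulated Naive cells, with an interval of -0.41 to 1.59. Its WT arrays read 6.83, 7.94 and 8.13 and its KO arrays 8.33, 8.34 and 7.99, which overlap.

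KO and WT arrays did not overlap for 2 genes in resting Naive cells, where 7.99% of all probes were so separated, and for 2 in stimulated Naive cells, where it was 6.46%. In resting Th2 and stimulated Th2 cells no gene was, against 10.1% and 7.31% of all probes. In resting Naive cells Pola2 read 5.61, 6.30 and 6.16 in WT and 6.45, 6.39 and 6.40 in KO (0.39 ± 0.17, adjusted p = 0.697), and Prim1 was not well above background on any of these arrays. In stimulated Naive cells Rfc1 read 8.49, 8.19 and 8.45 in WT and 8.77, 8.52 and 8.51 in KO (0.22 ± 0.13, adjusted p = 1.00), and Gmnn was not well above background.

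The response to each step did not differ detectably between genotypes either. No gene was called in the interaction of genotype with Naive stimulation, with Th2 stimulation or with Th2 differentiation at rest, and none had an unadjusted p below 0.05. Over all probes 0.00702%, 0.0% and 0.00702% were called, which is too few for the list's count to be read. The median interaction was 0.02, 0.12 and -0.08. The largest single value was that of Chaf1a, 0.57 for Th2 stimulation, where its fall was -0.96 in WT and -0.39 in KO cells.

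**Figure D5:**
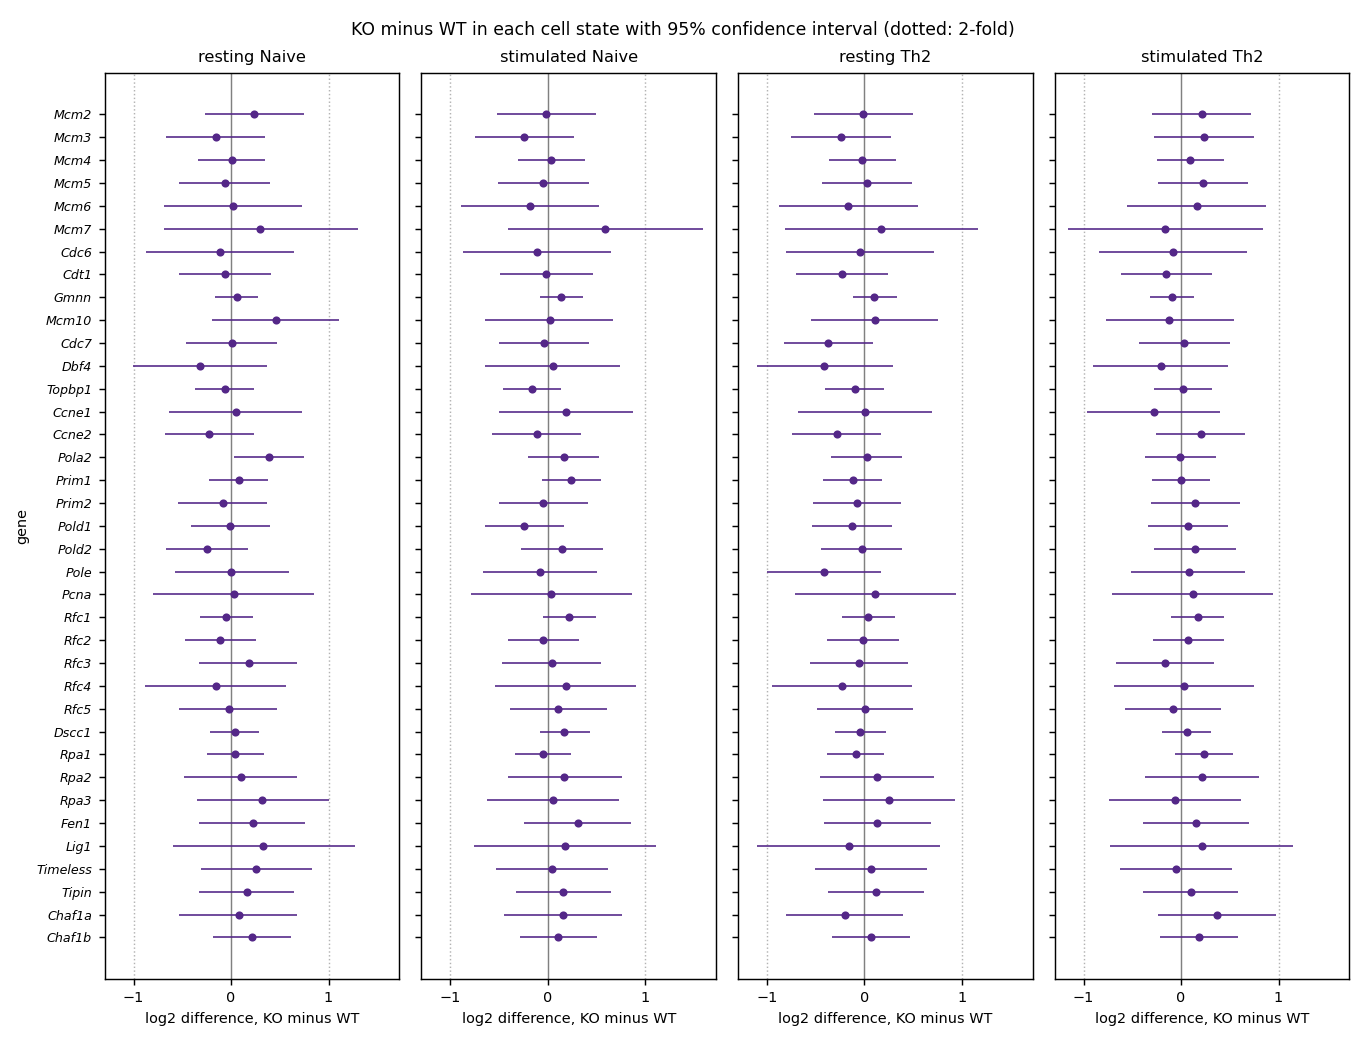
Each point is the KO minus WT log2 difference of 1 gene in the state above the panel, with its 95% confidence interval, and the dotted lines mark a 2-fold change in each direction. All points lie between -0.41 and 0.59, and all intervals but that of Pola2 in resting Naive cells contain 0.

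Replicates also differed in a shared way. In each of the 4 Th2 groups replicate C had the highest value for most of the 37 genes, for 29 in WT resting, 31 in KO resting, 28 in WT stimulated and 26 in KO stimulated cells, while it was highest for between 35.9% and 37.9% of all probes. The median deviation of the 37 genes from their group mean on those arrays was between 0.20 and 0.28. In stimulated Naive cells replicate A was the low one, by 0.16 in WT and 0.15 in KO cells. Replicate C was highest there for 19 of 37 genes in WT and 18 in KO cells, against 29.9% and 34.1% of all probes. In WT resting Naive cells it was highest for 19, against 39.0%. In KO resting Naive cells replicate A was highest for 19, against 30.7%. Mitosis genes followed, being highest in replicate C for 12 to 20 of 21 in the Th2 groups. In stimulated Naive cells it was 17 in WT and 13 in KO cells, and in resting Naive cells 14 and 4.

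For 9 genes with 25 kept probes, the other 16 probes were set beside the brightest. After 24 h the brightest probe of all 9 genes was called higher, and 10 of the 16 other probes were called higher too in each genotype. For resting Th2 against resting Naive cells 6 of 16 others were called with the brightest in WT and 7 of 16 in KO cells. For resting Th2 against stimulated Naive cells it was 2 of 5 in WT and 0 of 5 in KO cells, counting the probes whose brightest partner was called, and for stimulated against resting Th2 cells 1 of 9 in WT and 0 of 3 in KO cells. In that last WT comparison the dimmer Mcm4 probes, detected on 7 and 14 of 24 arrays, differed by -0.19 and -0.21 where the brightest fell by 1.08, and the dimmer Prim2 probe by -0.43 where the brightest fell by 1.41. An opposite sign at 24 h in WT cells was seen for Cdc6: one of its dimmer probes, detected on 1 of 24 arrays, differed by -0.05 where the brightest rose by 3.05. For Mcm6 3 of the 4 probes were called (2.31, 2.32 and 1.21), and for Lig1 3 of 4 (1.75, 1.31 and 1.69). Rpa1, Rfc1, Rfc2 and Pold1, which fell after PMA and ionomycin, had a single probe each, so no other probe could be set beside theirs.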

How the data were processed

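The deposited table held Illumina Mouse Ref-8 intensities, beside a deposited p-value of detection per probe. The authors read the arrays with GenomeStudio (version 1.6.0 per the processing notes), and the intensities were not normalised between arrays. Intensities were corrected and quantile normalised with neqc in limma 3.58.1 (R 4.3.3, offset 16), using the detection p-values to set the background. Of 25697 probes, the 14246 detected (p not above 0.02) on any of the 24 arrays were tested. All 8 groups entered 1 limma fit (16 residual degrees of freedom) with Benjamini-Hochberg adjustment over all of them. States and interactions were called at an adjusted p below 0.05, genotypes by the 4 thresholds of the methods, with the Z-ratio as the limma difference over the SD of all differences and with limma p-values, not the Z-score p-values of the methods. Per a legend of the study, WT and BAF180-deficient mice were used as 3 pairs, and the labels do not tie the replicate letters to them. Deviations of WT and KO arrays of the same letter from their group means correlated at r of 0.301 for A, 0.136 for B and 0.516 for C over the 4 states. A probe not detected on any array of a group was set at the lowest normalised signal among detected probes, or at its own value if higher, giving an "at least" fold.

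Each gene was described by its brightest kept probe. The shares of all probes count every kept probe, dimmer probes of the same gene included, so they are not in the same unit as the counts of genes. Genes named with full values were, in each WT comparison of states, the 5 called with the largest difference in each direction, and between genotypes up to 3 with arrays that do not overlap. Other genes are named by role. Members and lists were chosen with earlier results of these data known. The fit was tested on simulated data. Alternatives were no background correction, Z-scores, other detection filters, a replicate block, fewer arrays, the mean of all probes, other call rules and leaving out each array. The arrays' number limits the precision.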

Additional observations from a re-analysis of the deposited data

How the results depend on the processing

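The replication genes called in the comparisons with resting Naive cells, between genotypes and in the interactions changed by less than 1.5 times under every alternative run, and no called gene changed direction. With a fold change above 2 required as well, the counts were 0 in WT and 1 in KO cells for resting Th2 against stimulated Naive cells (7 and 9 otherwise), and 9 in WT and 5 in KO cells for stimulated against resting Th2 cells (14 and 9 otherwise). Leaving out 1 array gave 2 to 9 genes in WT and 3 to 11 in KO cells for the former, and 8 to 14 in WT and 8 to 11 in KO cells for the latter. It gave 30 to 32 and 32 to 34 genes for Naive stimulation, 27 to 30 in both genotypes for resting Th2 against resting Naive cells, and 0 between genotypes and in the interactions. None of the 7 WT calls for resting Th2 against stimulated Naive cells stood under every alternative, against 27 of the 32 for Naive stimulation. For stimulated against resting Th2 cells 7 of 14 calls in WT and 5 of 9 in KO cells did. The median difference for WT Naive stimulation was 1.26 without background correction and 1.16 with Z-scores put back on the log2 scale, against 1.74.

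Arrays of WT and KO cells share replicate letters, and the pairing check above gave a positive correlation for each letter (single states between -0.00263 and 0.662). With the letter as a replicate block, 10 genes were called in WT and 12 in KO cells for resting Th2 against stimulated Naive cells, 16 and 11 for stimulated against resting Th2 cells, and none between genotypes, each within 1.5 times the count without the block. A slide block was not run because the slide of each array is not given in the sources used here. Genes near background are limited by signal: Gmnn, Topbp1 and Dscc1 can show no fold. Prim1 was at least 1.16-fold lower in KO resting Th2 than in KO stimulated Naive cells, a value close to background.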
